A study of Xenopus laevis with 6 samples.

Results

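The outermost 5 Mb of the 18 assembled chromosomes of the frog Xenopus laevis held 10455 distinct open-chromatin intervals, out of 105000 in the 2 deposited lists together. The stage 12 list put 5907 of its 61049 regions there and the stage 10 list 4675 of its 44936; 127 intervals had the same coordinates in both lists. A region was counted as lying at an end when its centre fell in the first 5 Mb of a chromosome or within 5 Mb of the last base covered by any region of either list. The low-coordinate end is called the start and the other the far end. All other regions on these chromosomes form the interior, with 49138 regions at stage 12 and 35536 at stage 10. Chromosome lengths of the build were not used here, so the far ends are defined by the last region and not by the last base of the assembly.

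The libraries were made by ATAC-seq, in which the transposase Tn5 cuts and tags DNA that is not wrapped tightly in chromatin. The tissue was ectoderm explanted from the animal pole, the animal cap, cut out at stage 9 with no genetic or drug treatment stated, and grown to stage 12 (late gastrula, 3 libraries) or stage 10 (early gastrula, 3 libraries). A library pooled 2 explants and was read as 100-nucleotide pairs. The 3 libraries of a stage share 1 list of regions, so no spread between embryos could be set against any value, and the units of every test below are homeologous chromosome pairs within a list. Whether the 3 libraries came from separate clutches is not given in the sources used here.

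Chromosome ends carry telomeres, repeated sequence that protects the ends, with subtelomeric DNA next to them that is often rich in repeats and segmental copies. In many vertebrates the parts of a chromosome near its ends also have more genes, more recombination and a higher content of G and C than its middle. Xenopus laevis is allotetraploid: each chromosome exists as a longer copy (L) and a shorter copy (S) from its 2 parental species, and chromosome 9_10 is a fusion of ancestral chromosomes. Open regions in early ectoderm include promoters and enhancers, which transcription factors keep accessible. No genome of the build was given, so sequences, genes, gaps and base composition at these ends were not analysed here.

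Open regions were more densely spaced at the chromosome ends of most pairs than inside, with an adjusted p that narrowly missed the threshold. At stage 12 the ends held 32.8 regions per Mb and the interior 21.1 regions per Mb, a ratio of 1.55. At stage 10 the ends held 26.0 regions per Mb and the interior 15.3 regions per Mb, a ratio of 1.70. The ends make up 7.18% of the length between the chromosome starts and the last regions, and held 10.7% of all chromosomal regions at stage 12 and 11.6% at stage 10. The bases covered showed the same order: 2.04% of the ends and 1.32% of the interior lay in regions at stage 12, and 1.43% of the ends and 0.869% of the interior at stage 10.

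For the test, the log2 ratio of end density to interior density was averaged over the L and S chromosome of each pair. Means were tested over the 9 pairs by exact permutation of signs, two-sided. The stage 12 mean was 0.57 ± 0.47 (SD, n = 9 pairs) and ends were higher in 8 of them (exact p = 0.0117). The stage 10 mean was 0.69 ± 0.54 (SD, n = 9 pairs), with ends higher again in 8 (exact p = 0.00781). After Benjamini-Hochberg adjustment over the 13 tests of ends against interior, both exact p-values became 0.0508, just above the threshold of 0.05. The exception was pair 1, at -0.23 at stage 12 and -0.32 at stage 10. Leaving out pair 1, the only pair of opposite sign, gave means of 0.67 and 0.81 and put the exact permutation p at the smallest that 8 pairs can give (adjusted 0.0254 at both stages), so it is no support. Leaving out any other pair gave adjusted exact permutation p-values of 0.0677 to 0.102 at both stages. With the 18 chromosomes as units, of which 16 had denser ends at each stage, the adjusted exact permutation p was 0.00154 at both, although L and S copies of a pair are not independent.

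Pair 6 had the highest log2 ratio of ends to interior at both stages, 1.25 at stage 12 and 1.54 at stage 10. Pair 8 followed with 1.10 and 1.23, then pair 7 with 0.86 and 0.98 and pair 9_10 with 0.81 and 0.83, in the same order of stages. The ratio was 0.46 at stage 12 and 0.52 at stage 10 for pair 2, and 0.35 and 0.47 for pair 3. Pairs 4 and 5 were lower at stage 12, at 0.16 and 0.37, than at stage 10, at 0.36 and 0.56. The pairs therefore ranged from ends well above their interior to pair 1, whose averaged ratio lay below it. Single ends of pair 1 differed in sign. The log2 ratio was -1.42 at stage 12 and -1.40 at stage 10 for the start of 1L, and -0.66 and -0.63 for the far end of 1S. It was 0.41 and 0.01 for the far end of 1L, and 0.12 and 0.27 for the start of 1S.

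**Figure D1:**
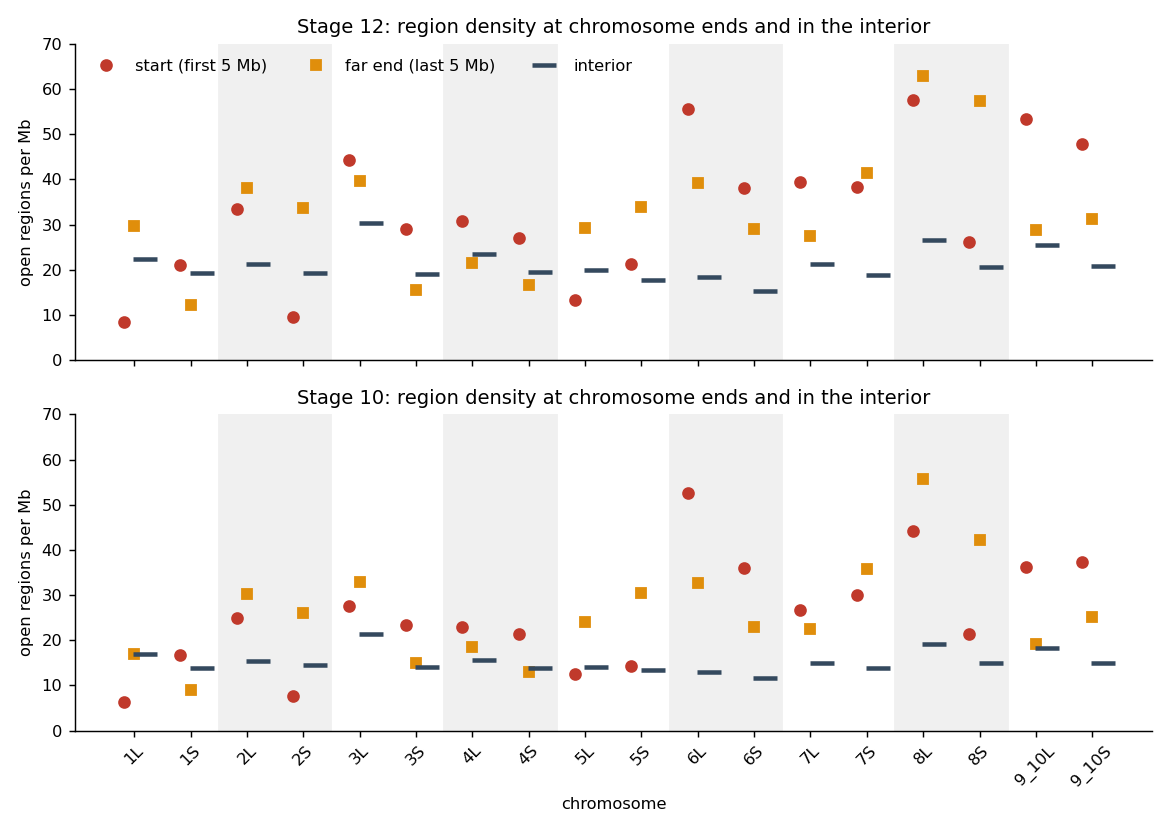
Open regions per Mb (y axis) in the first 5 Mb, the last 5 Mb and the interior of each of the 18 chromosomes (x axis), at stage 12 above and stage 10 below, 1 point per end. At stage 12, 29 of 36 ends lie above the interior of their chromosome and at stage 10, 31 of 36; the start of 1L, at 8.4 and 6.4 regions per Mb, is the lowest point of both panels.

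The ends differed widely among themselves. An end held from 42 to 314 regions at stage 12, with a median of 155, and from 32 to 278 at stage 10, with a median of 122.5. Of the 36 ends, 29 were above the interior density of their own chromosome at stage 12 and 31 at stage 10, and 29 were above it at both stages. The ratio to the interior ran from 0.374 to 3.01 at stage 12 and from 0.380 to 4.08 at stage 10. At each stage 10 ends had more than 2 times the interior density.

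The 3 ends with the most regions at stage 12 were the far end of 8L with 314, the start of 8L with 288 and the far end of 8S with 287. At stage 10 they were the far end of 8L with 278, the start of 6L with 263 and the start of 8L with 221. The start of 6L stood furthest above its interior: 55.6 against 18.5 regions per Mb at stage 12, and 52.6 against 12.9 at stage 10. Chromosome 8 thus supplied most of the densest ends in absolute number and chromosome 6 the end furthest above its own interior.

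The 3 ends with the fewest regions were the start of 1L with 42, the start of 2S with 48 and the far end of 1S with 61 at stage 12. The same ends were lowest at stage 10, the start of 1L with 32, the start of 2S with 38 and the far end of 1S with 45. The start of 5L, with 66 regions at stage 12 and 63 at stage 10, was also below its interior at both stages, as was the far end of 4S with 83 and 65. At stage 12 alone the far ends of 3S (78 regions) and 4L (107 regions) were below their interior too. The start of 1L had fewer regions at stage 12 than any of the 41 windows of 5 Mb laid through its interior, the only end of which this was so at either stage. Its outermost region lay 532 kb from base 1 at stage 12 and 365 kb at stage 10, the longest empty stretches at any start. Far ends are set by the last listed region and were not compared in this. Whether those stretches are assembly gaps was not tested.

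Set beside the windows of 5 Mb laid through the interior of their own chromosome, 15 to 41 per chromosome and 455 in all, 13 of 36 ends at stage 12 and 15 of 36 at stage 10 had more regions than every window. In 12 cases it was the same end at both stages. These were both ends of 6L, 6S, 7S and 8L, the far ends of 5S and 8S and the starts of 9_10L and 9_10S. On the densely populated chromosome 3L, in contrast, the start with 221 regions at stage 12 and the far end with 198 were exceeded by 2 and 4 interior windows, the highest of which held 311.

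Density was highest in the outer part of the 5 Mb. Averaged over the 36 ends, the outermost 1 Mb held 38.7 ± 22.4 regions at stage 12 (SD, n = 36 ends) and 32.1 ± 20.2 at stage 10. The next 2 steps of 1 Mb held 38.4 and 34.9 regions at stage 12, and 30.7 and 26.4 at stage 10. From 3 to 5 Mb the mean was 26.0 regions per Mb at stage 12 and 20.3 at stage 10. From 5 to 20 Mb it was 23.1 regions per Mb at stage 12, with single steps between 19.1 and 27.3, and 16.6 at stage 10, with steps between 13.6 and 20.6. All 3 outer steps were above every step from 5 to 20 Mb at both stages. The last 100 kb inside the limit of 5 Mb held 98 regions at stage 12 and 72 at stage 10 over all ends, and the first 100 kb outside it 80 and 49. The spread over ends was large at every distance: in the outermost 1 Mb an end held 1 to 94 regions at stage 12 and 4 to 82 at stage 10.

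**Figure D2:**
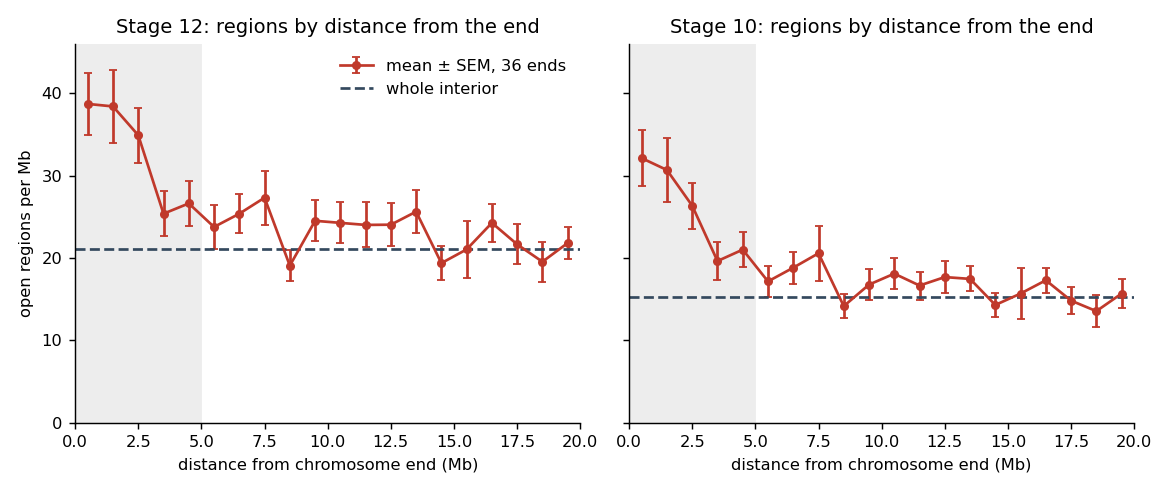
Open regions per Mb (y axis, mean and SEM over 36 ends) in steps of 1 Mb from the chromosome end (x axis), stage 12 left and stage 10 right. The dashed line is the density of the whole interior, and the outermost 5 Mb are shaded. The SEM takes the 36 ends as independent, which the L and S copies of a pair are not. The outermost step stands at 38.7 regions at stage 12 and 32.1 at stage 10, against dashed lines at 21.1 and 15.3.

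The start and the far end of chromosomes had about equal totals. At stage 12 the starts held 2971 regions and the far ends 2936, and at stage 10 the starts held 2314 and the far ends 2361. The start had more regions on 10 of 18 chromosomes at stage 12 and on 9 at stage 10. The mean log2 ratio of start to far end was -0.06 ± 0.70 at stage 12 (SD, n = 9 pairs; exact permutation p = 0.805, adjusted 0.942 over 8 tests) and -0.09 ± 0.69 at stage 10 (exact permutation p = 0.684, adjusted 0.942). Single chromosomes were lopsided in both directions. On 1L the start held 42 regions and the far end 149 at stage 12, and on 2S they held 48 and 168. On 9_10L the start held 267 and the far end 144. The ends of a chromosome differed more than 2 times on 4 chromosomes at stage 12 and on 3 at stage 10, and at most 3.55 times and 3.42 times.

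Homeologous ends resembled each other only in part. Pairing the start of L with the start of S, and far end with far end, gave 18 end pairs, in which L had more regions in 13 at stage 12 and in 11 at stage 10. Scaled to the interior density of its own chromosome, the L end was the higher one in only 8 of 18 at stage 12 and in 9 of 18 at stage 10. The unscaled density of the L end correlated with that of the S end at a Pearson r of 0.57 and a Spearman rho of 0.39 at stage 12, and at 0.61 and 0.55 at stage 10 (n = 18 end pairs, which share the list and its depth). For the log2 ratio of end to interior, r was 0.45 and rho 0.57 at stage 12, and 0.53 and 0.64 at stage 10. Pair 2 shows how far copies can part: its start held 167 regions on 2L and 48 on 2S at stage 12, while its far ends held 191 and 168. In pairs 6 and 9_10 both copies were dense at the start, with 278 on 6L and 190 on 6S, and 267 on 9_10L and 239 on 9_10S. That the coordinates of L and S copies run the same way was assumed and not tested.

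**Figure D3:**
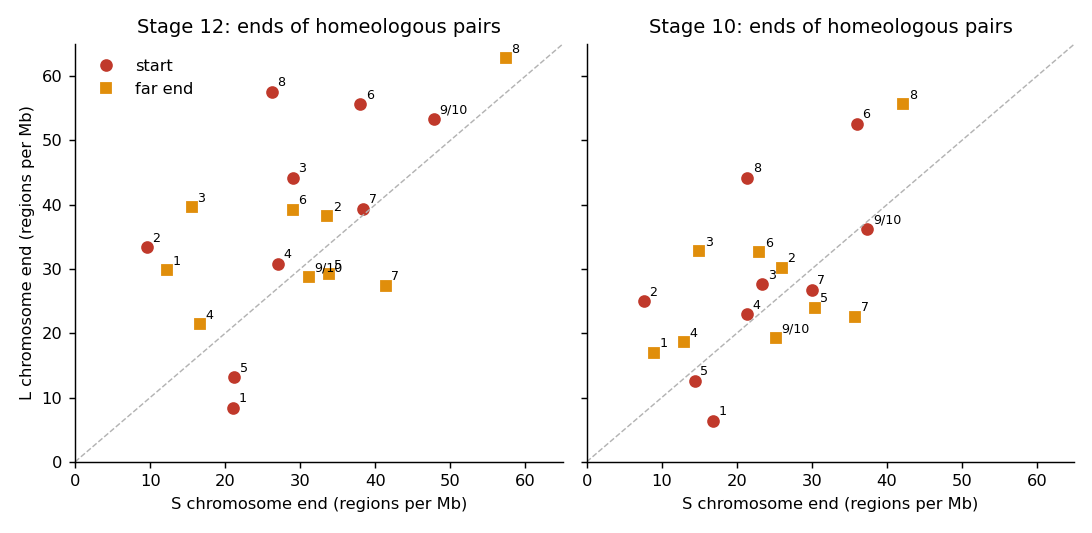
Regions per Mb at each L chromosome end (y axis) against the same end of its S copy (x axis), labelled by pair, stage 12 left and stage 10 right; the dashed line marks equality. Points above the line, 13 of 18 at stage 12 and 11 of 18 at stage 10, have more regions on L, and the start of pair 2 lies furthest to the left, at 9.6 and 7.6 regions per Mb on 2S.

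The regions at the ends were similar in size to those inside. The median width was 589 bp at the ends and 566 bp in the interior at stage 12, with interquartile ranges of 354 to 834 bp and 341 to 842 bp. At stage 10 it was 502 bp at the ends and 498 bp in the interior, with ranges of 272 to 765 bp and 295 to 776 bp. Regions over 1 kb made up 13.9% at the ends and 14.9% inside at stage 12, and 10.5% and 11.8% at stage 10. The log2 ratio of median widths was 0.06 ± 0.06 at stage 12 (SD, n = 9 pairs; higher at the ends in 8 of 9; exact permutation p = 0.0117, adjusted 0.0508) and 0.01 ± 0.12 at stage 10 (exact permutation p = 0.867, adjusted 0.867). With mean in place of median width the stage 12 value turned to -0.0022, and in the upper 50% of the list by −log10 p to -0.04.

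Each region holds 1 or more summits, the local maxima of the read pileup. The ends averaged 2.95 summits per region and the interior 2.93 at stage 12, and the ends 2.87 and the interior 2.89 at stage 10. The mean difference over pairs was 0.02 ± 0.09 at stage 12 (SD, n = 9 pairs; exact permutation p = 0.613, adjusted 0.664) and -0.02 ± 0.11 at stage 10 (exact permutation p = 0.527, adjusted 0.664). Regions with a single summit were 19.98% of the end regions and 20.8% of the interior regions at stage 12, and 25.8% and 23.5% at stage 10. Along the outermost 5 Mb the mean number of summits ran from 3.04 in the outermost 1 Mb to 2.91 between 4 and 5 Mb at stage 12, and from 3.00 to 2.78 at stage 10. Starts and far ends did not pass the test in width or summits at either stage. The log2 ratio of start to far end in width was -0.0022 ± 0.11 at stage 12 and 0.09 ± 0.14 at stage 10 (SD, n = 9 pairs), and the difference in summits 0.01 ± 0.12 and 0.0094 ± 0.14. The lowest of these 4 adjusted exact permutation p-values was 0.406.

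The authors' fold enrichment of the best summit, whose −log10 p is the highest of its region, was also close. Its median was 9.82 at the ends and 10.2 in the interior at stage 12, and 8.66 at the ends and 8.62 in the interior at stage 10. The log2 ratio over pairs was -0.04 ± 0.08 at stage 12 (SD, n = 9 pairs; exact permutation p = 0.191, adjusted 0.311) and 0.01 ± 0.08 at stage 10 (exact permutation p = 0.602, adjusted 0.664). The local background of reads, solved from fold and −log10 p, had a median of 14.2 reads at the ends and 13.6 in the interior at stage 12. At stage 10 it was 7.26 reads at the ends and 6.63 in the interior. These are 3.02, 2.88, 3.30 and 3.01 times the most common background of the list, which was 4.70 at stage 12 and 2.204 at stage 10. Listed regions at the ends thus had a slightly higher median background, pooled over chromosomes. The share of regions at the most common background or lower was also higher at the ends, 5.52% against 5.30% at stage 12 and 4.83% against 3.62% at stage 10. The median pileup was 148 reads at the ends and 146 inside at stage 12, and 70 and 66 at stage 10. The part of the background in the density was not tested.

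The distance from a region to its nearest neighbour in the same list was shorter at the ends as a median over all regions, 3647 bp at the ends against 4458 bp inside at stage 12 and 3415 bp against 5024 bp at stage 10. Such distances depend in part on the number of regions per Mb, so they are not a finding independent of the density. A neighbour lay within 10 kb for 71.8% of end regions and 65.5% of interior regions at stage 12, and for 69.4% and 60.6% at stage 10. The lower quartile ran the other way, at 572 bp for the ends and 429 bp inside at stage 12, and 456 bp and 337 bp at stage 10. Over pairs, the log2 ratio of median distances was -0.16 ± 0.49 at stage 12 (SD, n = 9 pairs; shorter at the ends in 6 of 9; exact permutation p = 0.371, adjusted 0.536) and -0.50 ± 0.56 at stage 10 (shorter in 8 of 9; exact permutation p = 0.0352, adjusted 0.0914). Pair 1 had longer distances at its ends, at 0.63 and 0.65, and was the only pair to do so at stage 10. Without it the stage 10 mean was -0.65 and the exact permutation p the smallest that 8 pairs can give (adjusted 0.0254), which follows from its sign. Without any other pair the adjusted exact permutation p was 0.102 to 0.183.

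**Figure D4:**
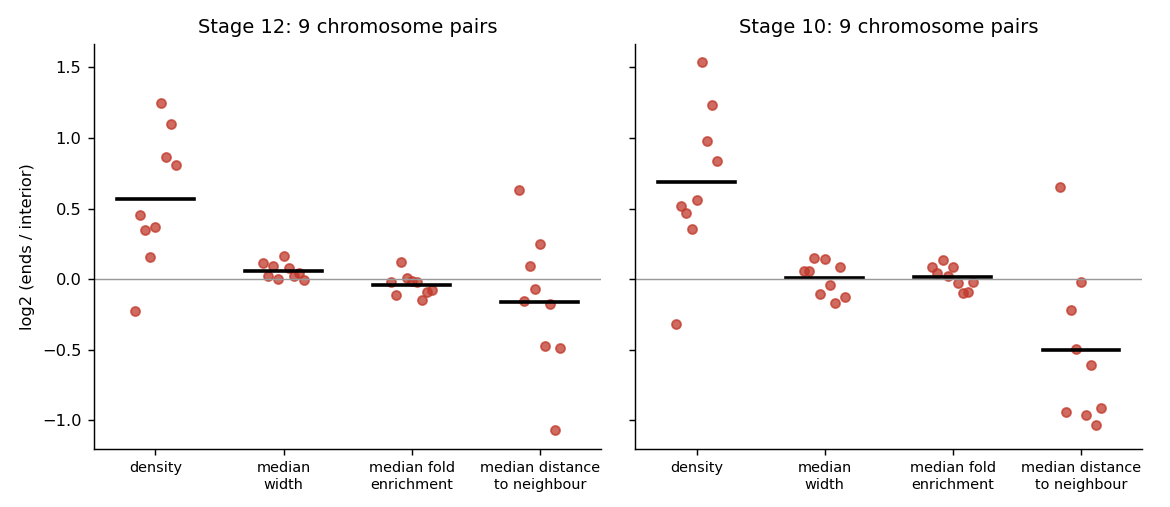
log2 ratio of ends to interior (y axis) for density, median width, median fold enrichment and median distance to the closest neighbour in the list (x axis), 1 point per homeologous pair in order of pair number, with the mean as a bar; stage 12 left, stage 10 right. Density has its mean at 0.57 and 0.69 with pair 1 below 0, while the points for width and fold enrichment lie close to 0 in every pair.

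Many end regions were listed at both stages. Of the 5907 end regions at stage 12, 3460 shared at least 1 bp with a stage 10 region, which is 58.6% (95% Wilson interval 57.3% to 59.8%, for counting error only), against 53.9% of interior regions (53.5% to 54.4%) and 54.4% of all stage 12 regions on chromosomes. Of the 4675 end regions at stage 10, 3567 overlapped a stage 12 region, or 76.3% (75.1% to 77.5%), against 77.9% of interior regions (77.4% to 78.3%) and 77.7% of all. The ends were thus higher than the interior by the share of the late list and lower by the share of the early list. At stage 10 the steps of the interior from 5 to 10 Mb were below the whole interior as well, as given below. Over pairs the difference was 3.72 ± 5.61 percentage points at stage 12 (SD, n = 9 pairs; higher at the ends in 7 of 9; exact permutation p = 0.0781, adjusted 0.169) and -2.26 ± 3.71 percentage points at stage 10 (lower in 6 of 9; exact permutation p = 0.105, adjusted 0.196). Neither passed the test.

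Because the share kept depends strongly on the rank of a region, it was also set out by deciles of −log10 p. Regions of all chromosomes were pooled for this, so the deciles share the same chromosomes and are not replicates. At stage 12 the end value was the higher one in 10 of 10 deciles. The gap was widest in decile 3, with 35.1% at the ends and 23.9% inside. It was smallest in decile 8, with 85.3% at the ends and 85.2% inside. In the highest decile 98.3% of end regions and 97.8% of interior regions were kept. At stage 10 the end value was the higher one in 0 of 10 deciles, with 45.6% at the ends and 46.9% inside in the lowest and 97.9% and 98.5% in the highest. With the interior weighted to the −log10 p of the ends, the difference over pairs was 3.95 percentage points at stage 12 and -3.13 at stage 10, both with an adjusted exact permutation p of 0.0592. When the upper 50% of each list by −log10 p were compared only with each other, the stage 12 difference was 6.92 percentage points and passed the test (adjusted exact permutation p = 0.0254), while the stage 10 difference was -3.36 (adjusted exact permutation p = 0.0943). The stage 10 difference was smaller with the interior weighted to the widths of the ends, at -1.29 (adjusted exact permutation p = 0.536), and with an overlap of 50% of both regions, at -1.16 (adjusted exact permutation p = 0.438).

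**Figure D5:**
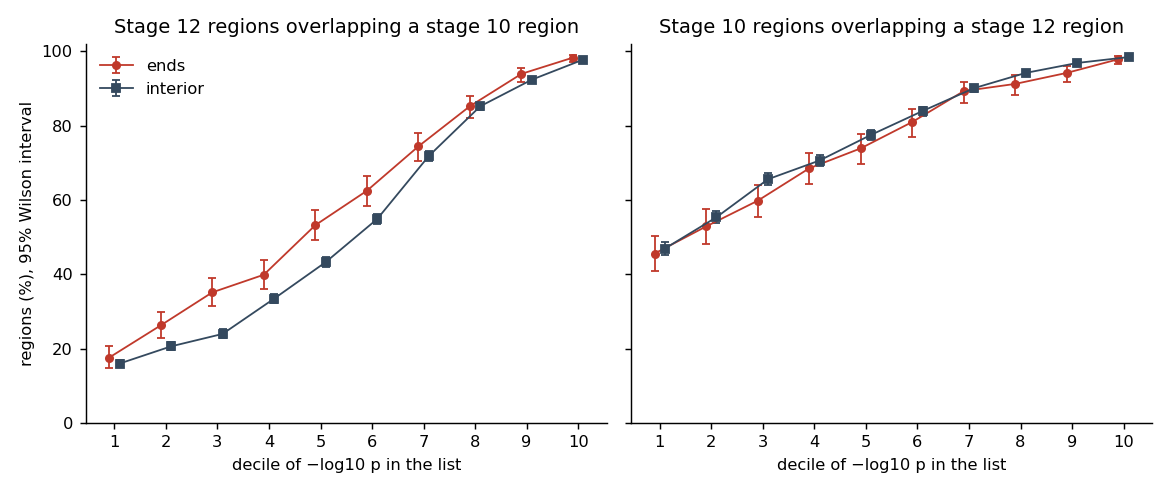
Share of regions that overlap a region of the other list (y axis, percent with 95% Wilson intervals) in each decile of the list by −log10 p (x axis), for ends and interior; stage 12 left, stage 10 right. Regions are pooled over chromosomes. At stage 12 the ends lie above the interior in 10 of 10 deciles, with 35.1% against 23.9% in decile 3 but 85.3% against 85.2% in decile 8. At stage 10 they do so in 0 of 10.

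The share kept at stage 12 was highest at the tips. It was 63.6% in the outermost 1 Mb (61.0% to 66.0%), 60.9% in the next, and 55.9%, 55.5% and 54.5% in the following steps, the last of which was near the interior value of 53.9%. At stage 10 the same steps gave 78.9%, 77.2%, 77.5%, 74.1% and 71.6%, against 77.9% in the whole interior, so only the outermost step lay above it. The adjoining 1 Mb steps of the interior, from 5 to 10 Mb, gave 75.2%, 73.6%, 76.2%, 70.6% and 75.2% at stage 10. A lower share at stage 10 was thus not particular to the ends. With 2 Mb at each end the stage 10 difference over pairs was 0.383 percentage points (adjusted exact permutation p = 0.867). Single ends ranged from 43.6% (far end of 1L) to 72.1% (start of 6S) at stage 12, and from 57.8% (far end of 1S) to 86.4% (start of 8L) at stage 10. Starts kept 59.6% and far ends 57.5% at stage 12, and starts 78.3% and far ends 74.4% at stage 10. The difference of start and far end over pairs was 1.72 ± 5.72 percentage points at stage 12 (SD, n = 9 pairs; exact permutation p = 0.398, adjusted 0.942) and 3.24 ± 3.82 at stage 10 (higher at the start in 7 of 9; exact permutation p = 0.0469, adjusted 0.375).

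Regions of a single stage were also counted per Mb, which restates the share kept and was not tested apart from it. Stage 12 regions with no stage 10 overlap numbered 2447 at the ends, or 13.6 per Mb against 9.73 per Mb inside, a ratio of 1.40 against 1.55 for all stage 12 regions. Stage 10 regions with no stage 12 overlap numbered 1108 at the ends, or 6.16 per Mb against 3.38 per Mb inside, a ratio of 1.82 against 1.70 for all stage 10 regions. Regions present in both lists were 1.69 times as dense at the ends as inside when counted in the stage 12 list and 1.67 times in the stage 10 list. Regions of a single stage were narrower at the ends and inside alike. At stage 12 the median was 467 bp for late-only and 686 bp for shared regions at the ends, and 430 bp and 725 bp inside. At stage 10 it was 299 bp for early-only and 576 bp for shared regions at the ends, and 314 bp and 570 bp inside. Only 166 end regions of stage 12 (2.81%) met 2 or more stage 10 regions, and 64 of stage 10 (1.37%) met 2 or more of stage 12, against 3.16% and 1.23% inside.

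The step in number between the lists was smaller at the ends. Few regions met more than 1 region of the other list. The step is therefore largely set by the shares kept at both stages and is not a separate finding. The stage 12 list had 1.26 times as many regions as the stage 10 list at the ends and 1.38 times as many in the interior. In the 9 pairs the log2 ratio of ends to interior was lower at stage 12 than at stage 10 by a mean difference of -0.12 ± 0.11 (SD, n = 9 pairs), in 8 of 9 pairs (exact permutation p = 0.0195, adjusted 0.0635). Of the 36 ends, 30 had a lower ratio to their interior at stage 12 than at stage 10. The call depended on the setting. The mean was -0.20 in the upper 50% of each list (adjusted exact permutation p = 0.0254), but -0.06 when bases covered were counted in place of regions (adjusted exact permutation p = 0.203). It was -0.10 both with 2 Mb at each end (adjusted exact permutation p = 0.244) and on L chromosomes only (adjusted exact permutation p = 0.370). With equal numbers of regions from each list it was -0.149 (adjusted exact permutation p = 0.0508). Over 18 chromosomes the adjusted exact permutation p was 0.0195. Leaving out pair 1, the only pair of opposite sign, gave 0.0254, again the smallest possible by construction, and leaving out any other pair gave adjusted exact permutation p-values of 0.0762 to 0.127. The most common background of the lists, 4.70 at stage 12 against 2.204 at stage 10, differs between the stages, and the part of depth in this difference was not tested.

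The end regions with the highest −log10 p were present at both stages, which is usual at that rank. In the highest decile of −log10 p, 98.3% of end regions and 97.8% of interior regions at stage 12 overlapped the other list. At stage 10 these shares were 97.9% and 98.5%. Positions are in the xenLae2 build, 1-based, and nothing is said of genes there. At stage 12 the first was chr3L:143065955-143068088, at the far end, with 14 summits in 2134 bp, a fold enrichment of 9.64 and a −log10 p of 5432. It overlapped a stage 10 region of 2131 bp with a −log10 p of 2826, which came in place 3 at stage 10. Its local background was 201 times the most common one at stage 12 and 211 times at stage 10. The next at stage 12 was chr3L:4437867-4439196, in which both lists have the same 1330 bp and 8 summits, with fold enrichments of 19.5 at stage 12 and 17.3 at stage 10, where it came in place 5. Another on this chromosome, chr3L:4497779-4498786, had 7 summits and a fold enrichment of 26.0 at stage 12 and 25.4 at stage 10.

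The other regions of the stage 12 group were narrow and steep. The region chr6L:153435126-153435251 has 126 bp and 1 summit, with a fold enrichment of 104 at stage 12 and 56.0 at stage 10. The region chr8L:1079997-1080186 has 190 bp and 1 summit, with a fold enrichment of 107 at stage 12 and 106 at stage 10. Their local backgrounds, 3.42 and 2.34 times the most common one at stage 12, were far below those of the broad regions on 3L.

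At stage 10 the first was chr3S:119814014-119816570, 2557 bp wide at the far end with 13 summits, and it overlaps a stage 12 region. Its fold enrichment was 7.87 at stage 12 and 9.18 at stage 10, and its −log10 p 811 at stage 12 and 4459 at stage 10. The second was chr1L:217939366-217941262, at the far end of 1L, with 1897 bp, 10 summits and a fold enrichment of 10.95 at stage 12 and 12.1 at stage 10. Its −log10 p was 545 at stage 12 and 3661 at stage 10. Their local backgrounds were 382 and 199.7 times the most common one at stage 10. The fourth, chr7L:126820072-126821076, ends at the last listed base of 7L and had a fold enrichment of 24.6 at stage 12 and 38.0 at stage 10, with a −log10 p of 150.2 at stage 12 and 2397 at stage 10. These extremes rank only the end regions of a list. The highest −log10 p in the interior was 21456 at stage 12 and 32355 at stage 10. Whether the sequence of the named regions is repeated in the genome was not tested.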

How the data were processed

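Chromatin accessibility was measured in 6 ATAC-seq libraries, assigned to stages by title. The deposited files are 1 list per stage with 10 columns in narrowPeak order. The submitters' processing notes name the build xenLae2 and bcl2fastq 2.20; the aligner, peak caller, read shift and pooling are not given in the sources used here. The deposited score of a region runs from 540 to 1000. Whether regions were filtered for agreement between replicates, as lists with scores of this range often are, is not given in the sources used here, and such a filter would limit the counts to regions found in several libraries. The deposited fold enrichment is a ratio of pileup to local background, and the deposited −log10 p belongs to each summit. A further deposited column, by its place −log10 q, was not used in any result. The summit offset, another deposited column, gave the best summit. The list totals are 179410 rows at stage 12 and 129900 at stage 10; the depth per library is unknown.

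Rows with one interval were joined into a region. Fold and −log10 p together gave pileup and local background, taking p as a Poisson tail. Each measure was compared between ends and interior per chromosome, averaged over L and S, and tested by exact sign-flip permutation over 9 pairs, whose smallest p is 0.00391, with Benjamini-Hochberg adjustment over 13 or 8 tests. The functions were tested on simulated data. Named are the 5 end regions per stage with the highest −log10 p and, of the 36 ends, the 3 with most and the 3 with fewest regions. The ends, measures and tests were chosen with earlier results of these data known. Alternatives changed the window, span, interior, list, units, overlap and weighting. Python 3.11.15, numpy 2.4.6, scipy 1.17.1, pandas 2.3.3 and matplotlib 3.10.9 were used.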

Additional observations from a re-analysis of the deposited data

Results flagged for a closer look

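The log2 ratio of end to interior density differed between the stages by -0.116 (stage 12 minus stage 10). This drew attention because a test of that difference gave an unadjusted exact permutation p of 0.0195 over 9 pairs. The adjusted value, 0.0635, did not pass, and the difference is largely set by the shares kept at both stages. Regions on unplaced scaffolds, 6004 at stage 12 and 4725 at stage 10, carried signal but have no position on a chromosome, so any that belong to chromosome ends are not counted there. In the 21 sets of 9 pair values, 0 held a pair that stood apart from the rest by Dixon's criterion, which chance passes in about 1 of 20 sets.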

How the results depend on the processing

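No paired analysis was possible because a stage has only 1 list and its columns carry no replicate numbers, and for the same reason no library was left out. Apart from leaving out pairs, 148 values kept their direction and side of the threshold, 17 passed the threshold and 20 changed sign, none of which had passed it. Why they shifted was not tested. Values below are log2 ratios, summits or percentage points.

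The density ratio stayed positive in every alternative run. With 10 Mb at each end it was 0.432 at stage 12 and 0.515 at stage 10 (adjusted exact permutation p = 0.0254 for both). With the outermost 5% it was 0.625 at stage 10 (exact permutation, adjusted p = 0.0339), and over 18 chromosomes 0.569 and 0.685 (exact permutation, adjusted p = 0.00154). The stage difference passed an exact permutation test with 10 Mb (-0.0823, adjusted p = 0.0254), with 5% (-0.115, 0.0339), in the upper 50% (-0.205, 0.0254) and over 18 chromosomes (-0.116, 0.0195). It was -0.0641 with bases covered (adjusted exact permutation p = 0.203), -0.102 on L chromosomes only (0.370) and -0.104 with 2 Mb (0.244). With equal numbers from each list it was -0.149 (adjusted exact permutation p = 0.0508). With 10 Mb the exact permutation test was also passed by summits at stage 10 (-0.0992, adjusted p = 0.0254), fold enrichment at stage 12 (-0.0423, 0.0406), distance at stage 10 (-0.303, 0.0423) and the share kept at the start against the far end at stage 10 (4.18, 0.0312). It was passed by width at stage 12 with 5% (0.0450, exact permutation, adjusted p = 0.0339) and over 18 chromosomes (0.0585, 0.0290), by distance at stage 10 over 18 chromosomes (-0.503, 0.0195) and by the stage 12 share kept in the upper 50% (6.92, 0.0254). The share kept at stage 10 was -1.29 with the interior weighted by width and -1.16 with an overlap of 50% of both regions (adjusted exact permutation p = 0.536 and 0.438).

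The changes of sign were these. Summits at the ends came to 0.0977 (2 Mb) and 0.0228 (L only) at stage 10, and to -0.0417 (10 Mb), -0.00578 (5%) and -0.00658 (upper 50%) at stage 12. Width at the ends came to -0.0223 (10 Mb), -0.0234 (5%), -0.0315 (upper 50%), -0.00624 (merged regions), -0.0246 (S only) and -0.0540 (mean width) at stage 10, and to -0.0398 (upper 50%) and -0.00221 (mean width) at stage 12. Fold enrichment came to 0.00148 (upper 50%) at stage 12 and -0.00385 (S only) at stage 10, and the share kept at stage 10 to 0.383 (2 Mb). Between start and far end, summits at stage 12 came to -0.0876 (2 Mb), width at stage 12 to 0.0300 (10 Mb) and 0.000169 (span from the first region), and the share kept at stage 10 to -0.114 (2 Mb).

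Leaving out each pair in turn gave a density ratio of 0.485 to 0.668 at stage 12 and 0.579 to 0.811 at stage 10, a stage difference of -0.142 to -0.0942 and a distance ratio of -0.648 to -0.437 at stage 10. These 4 passed the test only without pair 1, whose sign alone was opposite in each, so that the p then is the smallest possible by construction. Ranges that crossed 0 were -0.0113 to 0.0285 for width at stage 10, -0.00131 to 0.0299 for summits at stage 12 and -0.000692 to 0.0286 for fold enrichment at stage 10. Between start and far end they were -0.158 to 0.0611 for density at stage 12 and -0.196 to 0.0252 at stage 10, -0.0202 to 0.0203 for width at stage 12, and -0.00734 to 0.0294 and -0.0186 to 0.0408 for summits at stage 12 and stage 10.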
